A study of Homo sapiens with 4 samples.

Results

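The APOBEC3 cluster is a run of 7 genes on the long arm of chromosome 22, and its peaks were examined here in A3B (APOBEC3B) chromatin immunoprecipitation sequencing (ChIP-seq) of 2 uveal melanoma cell lines, OMM2.3 and 92.1. Each line had 1 library made with an antibody against A3B (Abcam) and 1 made with normal rabbit IgG (CST). The 4 libraries therefore formed 4 groups of 1, and the cells of all groups were grown in the same medium with no treatment named. The A3B peak list of each line, called against the IgG library of that line, was analysed. The cluster peaks were those that overlapped the GENCODE gene body of APOBEC3A, APOBEC3B, APOBEC3C, APOBEC3D, APOBEC3F, APOBEC3G or APOBEC3H extended by 3 kb, or that lay in a gap between these genes. This gave 10 of the 56167 peaks of OMM2.3 and 8 of the 136678 peaks of 92.1. With 1 library per group there was no spread between replicates, so intervals below cover counting error only and no p-value compares the lines.

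APOBEC3 enzymes are cytidine deaminases that turn cytosine into uracil in single-stranded DNA and restrict retroviruses and mobile elements. The primate cluster grew by repeated duplication of an ancestral gene, which leaves long near-identical stretches between its members. APOBEC3B is the member found mainly in the nucleus, and it is a known source of cytosine mutations in tumours. APOBEC3A, a close relative, prefers a pyrimidine ahead of the TCA triplet where APOBEC3B prefers a purine.

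The cluster, with 3 kb on either side, spans chr22:38949741-39107067 in GRCh38, which is 157.327 kb or 0.402% of the chromosome. All 7 genes lie on the plus strand and run from 6.096 kb (APOBEC3C) to 15.369 kb (APOBEC3F). The extended gene bodies covered 108.813 kb and left 5 gaps of 48.514 kb in all. APOBEC3C and APOBEC3D are so close that no gap remained between them.

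Sequence is shown first for peaks among the 3 of highest −log10 p in each list, so that the kind of DNA behind them can be seen. Each stretch is from the plus strand of GRCh38 and is 201 bases centred on the summit, the base with the most enrichment. Capitals mark ATCA or GTCA, the purine form of the context that APOBEC3B prefers, and TGAT or TGAC, the same letters read on the other strand. The first is in an intron of APOBEC3C (chr22:39015679-39015879) and the other at an exon of APOBEC3F (chr22:39042862-39043062), with 75 bases of intron followed by 126 of coding sequence. The called 92.1 peak, chr22:39042953-39043175, has its summit near its left edge. All of the intron part, with the capitals, therefore lies to the left of the called peak.
OMM2.3, APOBEC3C intron: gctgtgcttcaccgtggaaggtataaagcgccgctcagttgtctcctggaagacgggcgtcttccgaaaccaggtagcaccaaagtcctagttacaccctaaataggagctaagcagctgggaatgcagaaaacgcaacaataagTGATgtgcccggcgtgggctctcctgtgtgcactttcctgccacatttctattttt
92.1, APOBEC3F intron and exon: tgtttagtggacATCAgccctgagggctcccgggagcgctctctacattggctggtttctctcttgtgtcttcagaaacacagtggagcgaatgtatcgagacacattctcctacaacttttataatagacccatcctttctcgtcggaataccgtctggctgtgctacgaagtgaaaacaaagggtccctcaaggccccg

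The purine context was present 1 time in each of these windows, and in the 92.1 window it lay outside the called peak. It was found in 90.4% of the 782 windows of the same length tiled over the cluster and in 91.3% of the 10732 windows over the cluster and both flanks, with a median of 2 per window in each. The median over the cluster peak windows was 2.5 in OMM2.3 and 1 in 92.1, against 2 and 3 in the peak windows of the flanks. Such short letters occur nearly everywhere and their presence marks no site of action.

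The APOBEC3F stretch shows how alike the members are. It is set here beside its nearest match within APOBEC3G, 35.995 kb to the right at chr22:39078857-39079057, with capitals at the 5 of 201 bases that differ. That copy too holds 75 bases of intron and 126 of coding sequence, and 4 of the differences are in the intron part and 1 in the coding part. In APOBEC3F the intron part, with those 4 differences, lies outside the called 92.1 peak.
APOBEC3F: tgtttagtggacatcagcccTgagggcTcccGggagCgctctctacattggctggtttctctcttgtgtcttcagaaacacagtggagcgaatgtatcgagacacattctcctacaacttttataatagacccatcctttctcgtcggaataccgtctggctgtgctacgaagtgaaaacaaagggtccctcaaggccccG
APOBEC3G: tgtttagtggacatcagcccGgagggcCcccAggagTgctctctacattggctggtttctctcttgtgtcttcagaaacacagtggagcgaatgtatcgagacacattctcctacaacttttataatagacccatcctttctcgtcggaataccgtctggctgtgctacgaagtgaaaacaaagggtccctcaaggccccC
The 92.1 list held a peak at the APOBEC3F copy and neither list held one at the APOBEC3G copy.

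The first question was which members carried A3B peaks. At least 1 peak was found at 6 of the 7 members in OMM2.3, all but APOBEC3D, and at 5 of the 7 in 92.1, all but APOBEC3C and APOBEC3D. With the gene body alone, or with 1 kb added, the count was 3 in OMM2.3 and 4 in 92.1. By the rule with 3 kb added, 50.5% of all protein-coding genes had a peak in OMM2.3 and 73.6% in 92.1. On chromosome 22 the shares were 74.3% and 80.8%, and among genes no shorter than APOBEC3C and no longer than APOBEC3F they were 33.9% and 60.1%. No such share is given here for the gene body alone or with 1 kb added. With only 7 members, nothing particular to the family is read from these counts. No cluster peak reached a q of at most 0.05 in either line, a level that gave 0.0599% of protein-coding genes a peak in OMM2.3 and 0.309% in 92.1.

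**Figure D1:**
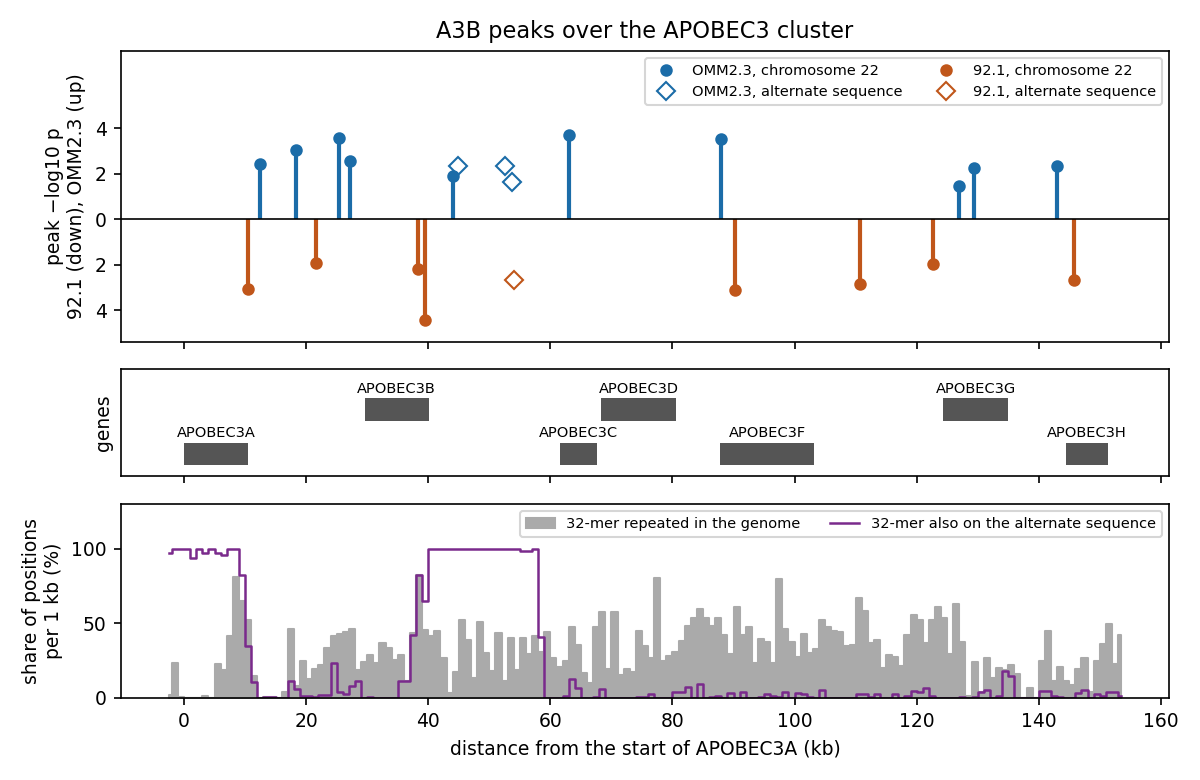
Cluster peaks by distance in kb from the start of APOBEC3A, with −log10 p of each peak upward for OMM2.3 and downward for 92.1. Filled circles are peaks on chromosome 22, open diamonds are peaks on the alternate reference sequence at the matching chromosome 22 position, grey bars in the middle panel are the 7 genes, and the lowest panel gives the share of 32-mers per 1 kb that are repeated in the genome or carried by the alternate sequence. The 10 and 8 circles never share a position.

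The peaks were weak, as the fragments behind them show. A fragment is 1 sequenced DNA piece, and the number stacked at each summit follows from the fold enrichment together with its p. The cluster peaks of OMM2.3 rested on 5 to 12 A3B fragments (median 7) and those of 92.1 on 4 to 7 (median 5). Fold enrichment over IgG (fragments, scaled by 0.8671 in OMM2.3 and 1 in 92.1, plus 1, over background plus 1) was between 1.98 and 3.27 in OMM2.3 and between 2.14 and 3.65 in 92.1. The q-value was 1 for all 10 peaks of OMM2.3 and for 7 of the 8 of 92.1, and 0.809 for the remaining one.

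APOBEC3A, a deaminase induced by interferon in myeloid cells, had 1 peak in each line, and both were at its far end. In 92.1 the summit of the peak at chr22:38963087-38963701 was the last base of the gene, in its untranslated region, with a fold enrichment of 2.91, a −log10 p of 3.09 and 5 fragments. In OMM2.3 the peak at chr22:38964945-38965176 lay beyond the gene, with a fold enrichment of 2.54, a −log10 p of 2.44 and 6 fragments. The nearest bases of these 2 peaks were 1244 bp apart, so they did not overlap.

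APOBEC3B, the immunoprecipitated protein's own gene, had 2 peaks in 92.1 and 1 in OMM2.3. The 92.1 peak at chr22:38992036-38992315 was the highest of the cluster in either line, with a fold enrichment of 3.65, a −log10 p of 4.45 and 7 fragments over an IgG background of 1.19. Its summit was in coding sequence of APOBEC3B and in an intron of APOBEC3B-AS1, an antisense non-coding RNA gene, and ChIP reads carry no strand with which to part them. The other 92.1 peak, at chr22:38990944-38991166 in an intron, had a −log10 p of 2.195 and 5 fragments. The OMM2.3 peak, at chr22:38979884-38980143, was centred 2427 bp upstream of the gene start with a −log10 p of 2.57 and 6 fragments. No peak of either line covered the start of APOBEC3B, and the peaks of the lines were on opposite sides of most of the gene.

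APOBEC3C encodes a small, single-domain member of the family. In OMM2.3 it held the cluster's highest −log10 p for that line, 3.69, in the intron stretch printed above, 1522 bp past the gene start. That peak, at chr22:39015603-39015895, had a fold enrichment of 3.27 and 10 fragments over an IgG background of 1.96, and 95.9% of its 32-mers occurred once in the genome. The 92.1 list held no peak within 3 kb of APOBEC3C. The intron also belongs to ENSG00000284554, a protein-coding locus of GENCODE that spans APOBEC3C and APOBEC3D.

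APOBEC3D, which restricts HIV-1 lacking the viral antagonist Vif, had no peak in either line. Its extended body is 18.165 kb long. At the peak density of the flanks a stretch of that length would hold 1.099 peaks in OMM2.3 and 1.85 in 92.1, so an absence of peaks was not detectable as a difference at this depth.

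APOBEC3F, another restriction factor of HIV-1, had 1 peak in each line. The OMM2.3 peak at chr22:39040492-39040909 had its summit in an exon 24 bp past the gene start, and at 12 fragments it held the most of any cluster peak. Its IgG background was also high at 3.00, which is 2.85 times the lowest level used by the caller in that line, and the fold enrichment was 2.85 with a −log10 p of 3.53. The 92.1 peak at chr22:39042953-39043175, whose summit is the centre of the stretch printed above, was 2358 bp past the start in coding sequence, with a fold enrichment of 2.86, a −log10 p of 3.13 and 6 fragments. The 2 peaks were 2044 bp apart.

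APOBEC3G, the member best known for its packaging into HIV-1 particles, had 2 peaks in OMM2.3 and 1 in 92.1. Both OMM2.3 peaks had their summits in exons, at chr22:39079541-39079765 with 8 fragments and at chr22:39082151-39082430 with 7. The first had the lowest −log10 p of the cluster, 1.47, over an IgG background of 3.00, and the second had 2.24 over 2.09. The 92.1 peak at chr22:39075246-39075468 was centred 1658 bp upstream of the start with a −log10 p of 1.98 and 5 fragments.

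APOBEC3H, the member at the right end of the cluster, had 1 peak in each line on either side of its start. The OMM2.3 peak at chr22:39095631-39095886 was centred 1429 bp upstream with a −log10 p of 2.31 and 7 fragments. The 92.1 peak at chr22:39098448-39098778 was centred 1365 bp downstream in an intron with a −log10 p of 2.68, 5 fragments and only 32-mers found once in the genome. Neither peak reached the RefSeq promoter of APOBEC3H at chr22:39096994-39097223 in GRCh38 (plus strand, the 230 bases up to the start), which held the purine context 3 times, in capitals.
APOBEC3H promoter: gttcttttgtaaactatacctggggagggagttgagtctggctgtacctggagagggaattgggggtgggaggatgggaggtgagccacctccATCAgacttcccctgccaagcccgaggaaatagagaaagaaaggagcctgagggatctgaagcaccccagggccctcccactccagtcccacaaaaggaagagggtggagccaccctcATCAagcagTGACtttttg
At least 1 such context stood in 86.0% of the 35116 RefSeq promoters cut to the same length. APOBEC3H was the 1 member of the 7 found in the promoter table.

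The gaps between members held 3 peaks in OMM2.3 and 2 in 92.1. The gap from APOBEC3A to APOBEC3B, 13.162 kb long, took 2 of those of OMM2.3 and 1 of 92.1. The OMM2.3 peak at chr22:38977924-38978308 had a fold enrichment of 3.19 and a −log10 p of 3.57 with 7 fragments, and its neighbour at chr22:38971006-38971235 had 2.82 and 3.02 with 7 fragments. In 92.1 the peak at chr22:38974276-38974498 had a −log10 p of 1.93 with 4 fragments, the fewest in the cluster. The gap from APOBEC3B to APOBEC3C held 1 OMM2.3 peak (chr22:38996711-38996968, −log10 p 1.91) in an intron of APOBEC3B-AS1, and the gap from APOBEC3F to APOBEC3G held 1 peak of 92.1 (chr22:39063292-39063514, −log10 p 2.86). Per 10 kb, gaps held 0.618 peaks and extended members 0.643 in OMM2.3, a ratio of 0.961 (95% interval 0.160 to 4.21), and 0.412 against 0.551 in 92.1, a ratio of 0.748 (0.0738 to 4.18). With the gene body alone the OMM2.3 ratio was 1.36, so its direction depended on the extension. The counts could not tell gaps from genes in either line.

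Both lines had peaks between the end of APOBEC3A and the end of APOBEC3B. The 30.224 kb from chr22:38962307 to 38992530 held 4 of the 10 OMM2.3 peaks and 4 of the 8 peaks of 92.1, or 1.32 per 10 kb (95% Poisson interval 0.361 to 3.39) in each. The 95.907 kb from APOBEC3C to APOBEC3H held 5 and 4, or 0.521 (0.169 to 1.22) and 0.417 (0.114 to 1.07) per 10 kb. These intervals overlap in both lines.

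Peaks of the lines never coincided in the cluster. The count of overlapping pairs was 0 of 10 OMM2.3 peaks, which allows a share of up to 30%, and 0 of 8 peaks of 92.1, which allows up to 37.5%. In the flanks 5 pairs overlapped, which was 4.13% of the 121 OMM2.3 peaks and 2.45% of the 204 peaks of 92.1, and on all of chromosome 22 the shares were 3.25% and 2.55% with 59 peaks of each list. Both limits lie above the shares of the flanks, so a difference in sharing was not detectable with so few peaks. The distance from an OMM2.3 cluster peak to the closest 92.1 peak ran from 1244 bp at APOBEC3A to 23288 bp at APOBEC3C.

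The second question was whether the cluster held more or fewer peaks than its surroundings. In OMM2.3 the cluster had 63.6 peaks per Mb (95% Poisson interval 30.5 to 117) and the 1 Mb on either side had 60 to the left and 61 to the right. The ratio to both flanks was 1.05 (95% conditional binomial interval 0.491 to 1.999). In 92.1 the cluster had 50.8 peaks per Mb (21.95 to 100.2) against 109 to the left and 95 to the right, a ratio of 0.499 (0.212 to 1.001). The flank density would place 9.52 peaks in the cluster in OMM2.3, where 10 were found, and 16.0 in 92.1, where 8 were found. Against the left flank alone the 92.1 ratio was 0.467 (0.196 to 0.952) and against the right flank alone 0.535 (0.225 to 1.098), so the interval lay below equal density against the left side and included it against the right side and against both together.

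**Figure D2:**
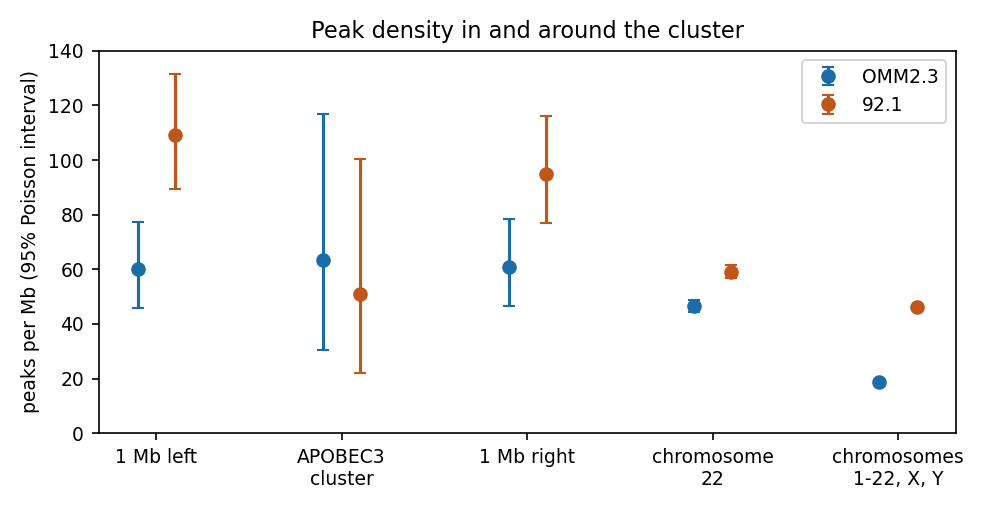
Peaks per Mb in the cluster, in 1 Mb on each side, on chromosome 22 and on chromosomes 1 to 22, X and Y outside assembly gaps, for OMM2.3 and 92.1, with 95% Poisson intervals for counting error. The OMM2.3 cluster (63.6) is level with its flanks and the 92.1 cluster (50.8) lies below them, with wide intervals in both.

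The region is rich in peaks in both lines, and the cluster shares in that in OMM2.3. Chromosome 22 as a whole had 46.4 peaks per Mb in OMM2.3 and 59.0 in 92.1, and all of chromosomes 1 to 22, X and Y had 18.9 and 46.1. The cluster therefore had 3.37 times the peak density of the rest of the genome in OMM2.3 (95% interval 1.61 to 6.19) and 1.104 times in 92.1 (0.477 to 2.18). Counted between lines, 92.1 had 0.8 times the peaks of OMM2.3 in the cluster (0.274 to 2.25), 1.69 times in the flanks (1.34 to 2.13) and 2.44 times over the genome (2.41 to 2.46). On chromosome 22 as a whole the ratio was 1.27 (1.196 to 1.35). The cluster interval includes the values of the flanks and of chromosome 22. It lies below the value of the genome, as do the intervals of the flanks and of chromosome 22.

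Peaks were also counted in steps of 50 kb. The 39 steps wholly outside the cluster held 0 to 9 peaks in OMM2.3 (median 3), and the 3 steps from the left edge of the cluster held 5, 2 and 3. In 92.1 the outside steps held 2 to 9 (median 5) and the cluster steps 4, 1 and 3. The step with 1 peak, which covers APOBEC3C, APOBEC3D and the start of APOBEC3F, was below every step outside the cluster in 92.1. Only peaks on chromosome 22 itself were counted. A 92.1 peak on the alternate reference sequence matches chr22:39006867 in this step, and with it the step would not be below every outside step.

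**Figure D3:**
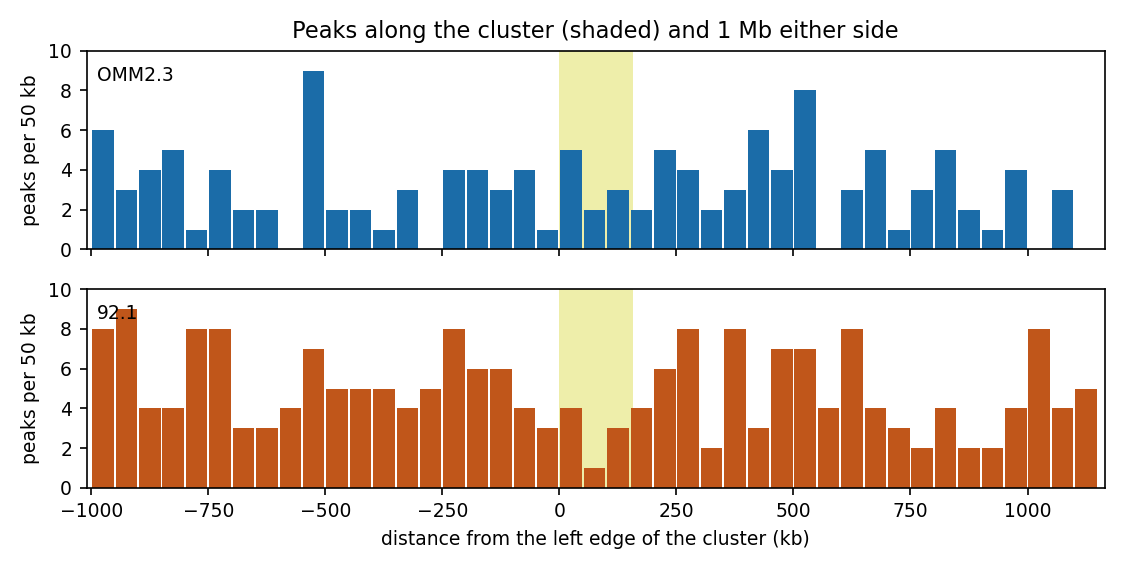
Peaks per 50 kb by distance in kb from the left edge of the cluster, which is shaded, for OMM2.3 (upper panel) and 92.1 (lower panel). The cluster steps hold 5, 2 and 3 peaks in OMM2.3, where outside steps run from 0 to 9, and 4, 1 and 3 in 92.1, where they run from 2 to 9. Peaks on the alternate reference sequence are not counted.

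Genes beside the cluster gave a measure of what its members look like. Of the 38 protein-coding genes of the flanks, 31 had a peak in OMM2.3 and 37 in 92.1. POLR2F, a subunit shared by the RNA polymerases, had 8 peaks in OMM2.3 and 17 in 92.1, and CACNA1I, a T-type calcium channel, had 8 and 12. ENTHD1 had 8 in each line, and PLA2G6, a phospholipase, had 7 and 15. These genes are far longer than any APOBEC3 gene. Per 10 kb of extended gene, all 38 flank genes ranged from 0 to 1.66 (median 0.619) in OMM2.3 and all 7 members from 0 to 1.199 (median 0.608). In 92.1 the flank genes ranged from 0 to 3.22 (median 1.02) and the members from 0 to 1.22 (median 0.5996). The highest −log10 p of the 92.1 flanks, 5.04 with 8 fragments and a q of 0.291, was at chr22:39113654-39113935, just outside the cluster and 16609 bp past the start of APOBEC3H, the nearest gene start. In OMM2.3 the highest flank value was 3.62 at chr22:39454724-39454966, 2234 bp upstream of MGAT3, a glycosyltransferase gene, which is below the 3.69 of the APOBEC3C intron.

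APOBEC genes that lie elsewhere in the genome were also counted. APOBEC1, the apolipoprotein B messenger RNA editor, had 1 peak in each line. APOBEC2 had 0 peaks in OMM2.3 and 7 in 92.1, and APOBEC4 had 0 and 2. The best −log10 p among them was 3.52, at APOBEC4 in 92.1. Each of these 3 genes had at least as many peaks in 92.1 as in OMM2.3, the order of the 2 lists as a whole.

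The third question was how strong the cluster peaks were beside those of the flanks. In OMM2.3, 4 of the 10 cluster peaks had a −log10 p of at least 3 (40%, 95% Clopper-Pearson interval 12.2 to 73.8) against 13 of 121 in the flanks (10.7%, 5.85 to 17.7). Those 4 were the APOBEC3C intron, the APOBEC3F start and both peaks of the gap from APOBEC3A to APOBEC3B. The density of such peaks was 3.91 times that of the flanks, with an interval from 0.929 to 12.7. In 92.1 the counts were 3 of 8 (37.5%, 8.52 to 75.5) against 39 of 204 (19.1%, 13.96 to 25.2), at the end of APOBEC3A, in APOBEC3B and in APOBEC3F, and the density ratio was 0.978 (0.193 to 3.08). Such peaks made up 24.4% of the chromosome 22 peaks of OMM2.3 and 28.2% of those of 92.1. On chromosomes 1 to 22, X and Y the shares were 31.1% in OMM2.3 and 27.5% in 92.1. The OMM2.3 flank share was therefore low beside both, and the cluster intervals include all of these shares but that of the OMM2.3 flanks. Median fragments were 7 in the cluster and 8 in the flanks of OMM2.3, and 5 in both in 92.1, while median IgG background was 1.73 against 1.9999 and 1.39 against 1.34.

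**Figure D4:**
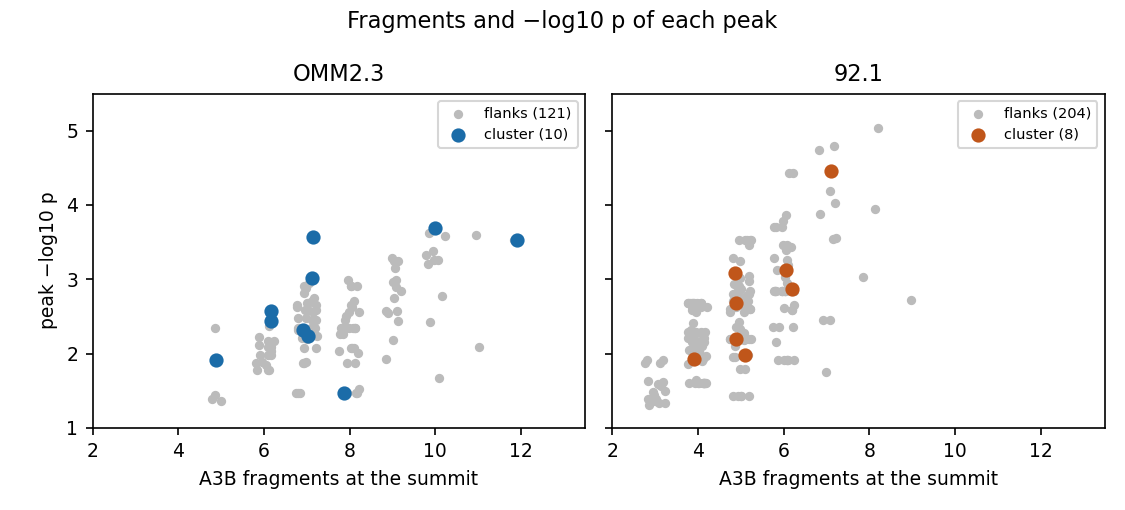
A3B fragments at the summit (horizontal, spread slightly so that equal values can be seen) against −log10 p (vertical) for each peak of the cluster (coloured) and of 1 Mb on both sides (grey), in OMM2.3 and 92.1. In OMM2.3 the highest cluster peak (3.69) is just above the highest flank peak (3.62), in 92.1 the highest cluster peak (4.45) is below the highest flank peak (5.04), and 4 of 10 and 3 of 8 cluster peaks reach a −log10 p of 3.

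Where peaks fell within genes was also set beside the flanks. In OMM2.3 the summits were intergenic for 5 of 10 cluster peaks, exonic for 3 and intronic for 2, and in the flanks for 32, 19 and 70 of 121. In 92.1 the cluster counts were 3, 3 and 2 of 8 and the flank counts 60, 26 and 118 of 204. Intronic summits made up 20% and 25% in the cluster and 57.9% and 57.8% in the flanks. Protein-coding genes of the flanks ran from 0.213 kb to 150.821 kb, and the members from 6.096 kb to 15.369 kb. The part of gene length in the contrast was not tested.

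Repeated sequence was more common in the cluster and at its peaks than in the flanks. Within the cluster 31.4% of 32-mers occurred more than once among all sequences of GRCh38 but the alternate ones, against 16.1% in the flanks. Summit windows with under 50% of single-copy 32-mers made up 5 of 10 cluster peaks in OMM2.3 (50%, 95% Clopper-Pearson interval 18.7 to 81.3) against 14 of 121 in the flanks (11.6%, 6.47 to 18.7). In 92.1 the counts were 4 of 8 (50%, 15.7 to 84.3) against 21 of 204 (10.3%, 6.49 to 15.3). The OMM2.3 peak at chr22:38977924-38978308, in the gap between APOBEC3A and APOBEC3B, was exactly at 50% and is not among the 5. In both lines the cluster and flank intervals did not overlap, but narrowly: 18.71 against 18.65 in OMM2.3 and 15.70 against 15.30 in 92.1. The share of all cluster windows under 50% is not given here. A trait of the peaks therefore cannot be told apart from the repeats of the cluster as a whole. How reads that match more than 1 place were handled was not given in the sources used here, and the part of such reads in the peaks was not tested. A further density ratio counted peaks with at least 50% of single-copy 32-mers in the summit window, over single-copy positions alone. It was 0.727 in OMM2.3 and 0.340 in 92.1 against the flanks, and no interval is given here. Partly repeated windows were thus kept, among them the OMM2.3 peak at exactly 50%.

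**Figure D5:**
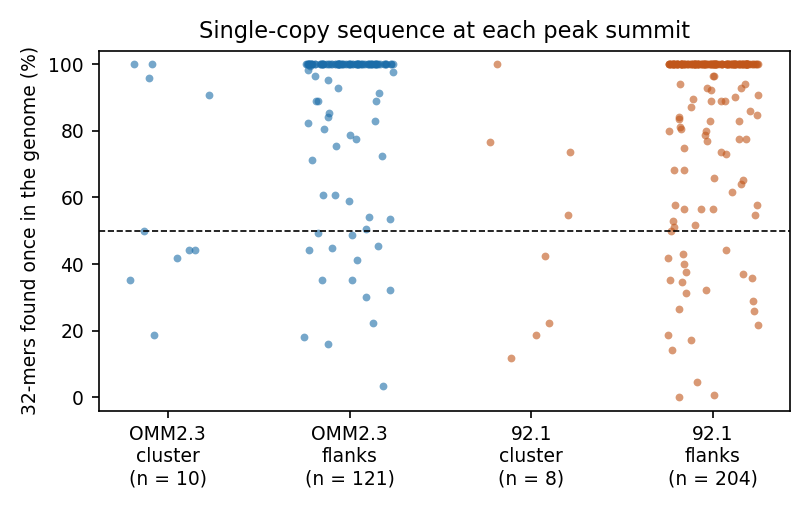
Share of 32-mers found once in the genome (vertical, percent) in the 201 bases around each summit, 1 point per peak, for the cluster and its flanks in OMM2.3 and 92.1. Copies on alternate sequences are not counted. Below the dashed line at 50% lie 5 of 10 and 4 of 8 cluster peaks but 14 of 121 and 21 of 204 flank peaks.

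Some repeats joined one member to another. The 201 bases around the OMM2.3 peak at the start of APOBEC3F had a copy at chr22:39076929-39077129, across the start of APOBEC3G, that differed at 1 base, and another just ahead of APOBEC3D at chr22:39020769-39020969 that differed at 4. The 92.1 peak in the APOBEC3B intron had a copy in an APOBEC3A intron, 29.945 kb to the left, that differed at 1 base, and the highest 92.1 peak had one there that differed at 4. None of these copies, nor the APOBEC3G copy printed above, held a peak in either line. A fragment from such a stretch cannot always be assigned to one member, so which of APOBEC3D, APOBEC3F and APOBEC3G, or of APOBEC3A and APOBEC3B, gave it cannot be told apart from these lists. The peaks with only single-copy 32-mers were those beyond APOBEC3A and in the left part of the gap to APOBEC3B in OMM2.3 and the APOBEC3H intron in 92.1, and the APOBEC3C intron peak came close with 95.9%.

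Part of the cluster also has a second home in the reference. An alternate sequence of chromosome 22 in GRCh38, 96.924 kb long, repeats 78.013 kb that end inside APOBEC3A and 18.63 kb that start near the end of APOBEC3B, and is 29.936 kb shorter between them, where most of APOBEC3B is missing. Peaks lay on it, so the reads were aligned to both versions. The repeated stretches cover 31.196 kb of the cluster and held 1 OMM2.3 peak and 0 peaks of 92.1 on chromosome 22, against 9 and 8 in the other 126.131 kb, ratios of 0.449 (95% interval 0.0102 to 3.24) and 0 (0 to 2.37). The alternate sequence added 3 peaks of OMM2.3 and 1 of 92.1, all 4 at positions of the gap from APOBEC3B to APOBEC3C. With them the ratio for the repeated stretches turned to 1.80 (0.404 to 6.44) in OMM2.3 and was 0.505 (0.0114 to 3.77) in 92.1. The cluster then held 13 and 9 peaks and its density ratio to the flanks, treated alike, was 1.33 and 0.555. In the ratios with added peaks, peaks of both versions were counted over the chromosome 22 length alone. They therefore do not compare equal lengths of sequence searched. The 4 peaks had 4 or 5 fragments and −log10 p values from 1.65 to 2.68.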

How the data were processed

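Cells of both lines were fixed with formaldehyde and chromatin was sonicated, and libraries were sequenced from both ends. The authors checked reads with FastQC 0.11.9, aligned them to GRCh38 with Bowtie2 2.2.5, dropped duplicate reads (Sambamba) and ran MACS2 2.2.7.1 with a p threshold of 0.05 and the IgG reads of the same line as control. No filter on mapping quality was given in the sources used here. The deposited score was 10 times the −log10 p, rounded down. The deposited fold enrichment is a ratio of scaled A3B fragments to IgG background, with 1 added to both. The deposited −log10 p-values and −log10 q-values are those at the summit, and a −log10 q of 0 is a q of 1.

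Genes came from GENCODE 44. A peak belonged to a member by an overlap of at least 1 bp, and densities counted summits. Fragment numbers were recovered within 0.002 of the deposited −log10 p, for 99.9% of OMM2.3 peaks and 100% of those of 92.1. At an assumed genome of 2700000000 bp the lowest IgG background corresponds to 12600000 and 10600000 scaled fragments in OMM2.3 and 92.1, an estimate and not a measured depth. Repeats were 32-mers counted over GRCh38 without its alternate sequences. Intervals (95% exact Poisson, Clopper-Pearson, and conditional binomial for ratios) are on counts of peaks and cover counting error only, since each group had 1 library. The overlap counts, recovered fragments and intervals were tested on simulated data.

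The members, gene lists and comparisons were chosen with earlier results of these data known. Named genes were the 7 members, the annotated genes of the cluster with a peak, APOBEC1, APOBEC2 and APOBEC4, the flank genes with most peaks (3 per line), and the gene nearest the highest flank peak of each line. Sequences were chosen among the 3 cluster peaks of highest −log10 p per line, and those over untranslated bases or a gene start are given by position alone. Some results of the chosen lists are not reported here. Alternatives changed the gene extension, the flanks, the peak threshold and the overlap. Python 3.11.15, numpy 2.4.6, scipy 1.17.1, pandas 2.3.3, numba 0.67.0 and matplotlib 3.10.9 were used.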

Additional observations from a re-analysis of the deposited data

Results flagged for a closer look

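Peaks on the alternate sequence of chromosome 22 lie outside the comparisons with the flanks. OMM2.3 had 6 of them and 92.1 had 3, of which 3 and 1 matched positions inside the cluster, all between APOBEC3B and APOBEC3C. The other 3 and 2 matched positions to the left of APOBEC3A. This was singled out because the count in OMM2.3, 6, exceeds the limit of 3 that a count of 0 allows. That limit is not an expected count. At the OMM2.3 flank density of 60.5 peaks per Mb, a sequence of 96.924 kb would hold peaks too, so the 6 are not read as an excess.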

How the results depend on the processing

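Of 46 alternatives over 9 results, 30 left the value within its interval or within 1.5 times and 16 moved it. Ratios whose intervals included 1 crossed it in OMM2.3. The density ratio to the flanks went from 1.05 to 0.727 with mostly single-copy peaks over single-copy positions. The ratio of gaps to members went from 0.961 to 1.36 with the gene body alone. In OMM2.3, peaks over members went from 7 to 4 with the gene body alone, 4 with 1 kb added and 11 with 10 kb added, and members with a peak went from 6 to 3 with the gene body alone and with 1 kb. At a q of at most 0.05 peaks and members with a peak fell to 0 in both lines, and the density ratio had no value. At a −log10 p of at least 3, OMM2.3 kept 2 peaks over 2 members and 92.1 kept 3 over 3, and the OMM2.3 density ratio moved from 1.05 to 3.91. The share of all protein-coding genes with a peak at that level is not given here, so nothing is read from these member counts. With 8 or more fragments required, 3 peaks over members remained in OMM2.3 and 0 in 92.1. Adding the peaks of the alternate sequence was chosen after seeing the data. No paired analysis was possible because every group consisted of a single library. Peaks of 4 to 12 fragments and 8 to 10 peaks per line limit every comparison here.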
